A study of Mus musculus with 4 samples.

Results

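Keratins are the intermediate filament proteins of epithelial cells. The genes were taken by name: a symbol of Krt followed by a number, pseudogenes and keratin-associated proteins left out, read from probe sets that name 1 gene. This gave 52 of the 22180 genes measured. Colon RNA was hybridised to 4 Affymetrix whole-transcript arrays, 1 for each group, and the values are log2 signals. In the order used here the groups were tumours and then normal colon of CDX2; Dmt1F/F/ApcF/+ mice (F/F below) and of CDX2; Dmt1+/+/ApcF/+ mice (wild-type below). All groups thus shared the ApcF/+ genotype, the C57BL/6 background, an age of 3 months and the name CDX2, which is not explained further. By convention F stands for a loxP-flanked allele, Apc is the tumour suppressor that restrains Wnt signalling, and Dmt1 (Slc11a2) is an iron importer. The design text names 4 F/F and 7 wild-type animals. How they were divided over the arrays, whether RNA was pooled, and what drives the recombination are not given in the sources used here. No group has a replicate, so a difference between 2 arrays has no measured error.

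A keratin filament is built from a type I and a type II chain in equal amounts, so each epithelium makes matched pairs. Simple epithelia such as the lining of the gut use KRT8 (type II) with KRT18, KRT19 and KRT20 (type I), and ducts and glands add KRT7 (type II). Squamous epithelia such as skin and the anal canal use KRT5 and KRT14 in the basal layer, KRT1 and KRT10 above it, and KRT6, KRT16 and KRT17 after injury, while the hair shaft and its inner root sheath have keratins of their own. The genes lie in a pair of clusters: 27 of the type I members were on chromosome 11, and the 24 type II members were on chromosome 15 with 1 type I gene, Krt18. By class there were 5 simple-epithelial keratins, 17 squamous, 15 of the hair shaft, 8 of the inner root sheath and companion layer, and 7 others with no settled class, among them Krt23 and Krt90. Krt5, the basal squamous type II keratin, has no probe set of its own and shares one with Krt6a. That shared probe set was at 4.22 in the F/F tumour and 4.10 in the wild-type tumour, against 4.25 in F/F normal colon and 3.93 in wild-type normal colon.

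Most keratins were near background in the colon, and the simple-epithelial ones were not. With no detection call in the files, background was set at the median level of all genes, a log2 signal of 4.67. A gene reached it if its highest array did. This held for 13 keratins (25.0% of 52), against 54.4% of all genes. All 5 simple keratins reached it on every array. So did 4 of 17 squamous keratins (Krt1, Krt10, Krt14 and Krt17), 2 of 15 hair shaft keratins (Krt33a and Krt36), 0 of 8 of the inner root sheath and 2 of 7 others (Krt23 and Krt90), each on 1 array or more. A lower limit, the 95th percentile of olfactory receptor genes (log2 4.27), was reached by 24 keratins (46.2%) and by 60.2% of all genes. Per array the number at or above 4.67 was 10 in the F/F tumour and 10 in the wild-type tumour, against 8 in F/F normal colon and 7 in wild-type normal colon. At or above the lower limit it was 13 in the F/F tumour and 16 in the wild-type tumour. It was 15 in F/F and 15 in wild-type normal colon, so the order of the F/F arrays depended on the limit. The share of all genes was not counted per array.

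The 39 keratins below 4.67 on every array lay between 1.94 and 4.62. They were the squamous genes Krt2, Krt4, Krt6a, Krt6b, Krt9, Krt12, Krt13, Krt15, Krt16, Krt76, Krt77, Krt78 and Krt79, which ranged over 2.20 to 4.40, and the hair shaft genes Krt31, Krt32, Krt33b, Krt34, Krt35, Krt39, Krt40, Krt81, Krt82, Krt83, Krt84, Krt86 and Krt87, over 1.94 to 4.44. All inner root sheath genes (Krt25, Krt26, Krt27, Krt28, Krt71, Krt72 and Krt73) and the companion layer gene Krt75 were among them, as were Krt24, Krt42, Krt80, Krt88 and Krt222. Between any of the compared arrays none of the 39 differed by as much as 2-fold, a log2 difference of 1. The members nearest the limit were Krt73 (highest array 4.62) and Krt42 (4.61) below it, and Krt1 (4.79) and Krt33a (4.82) above it. Krt18 has a further probe set that stayed between 3.41 and 3.90, while the one used here lay between 8.58 and 9.16.

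**Figure D1:**
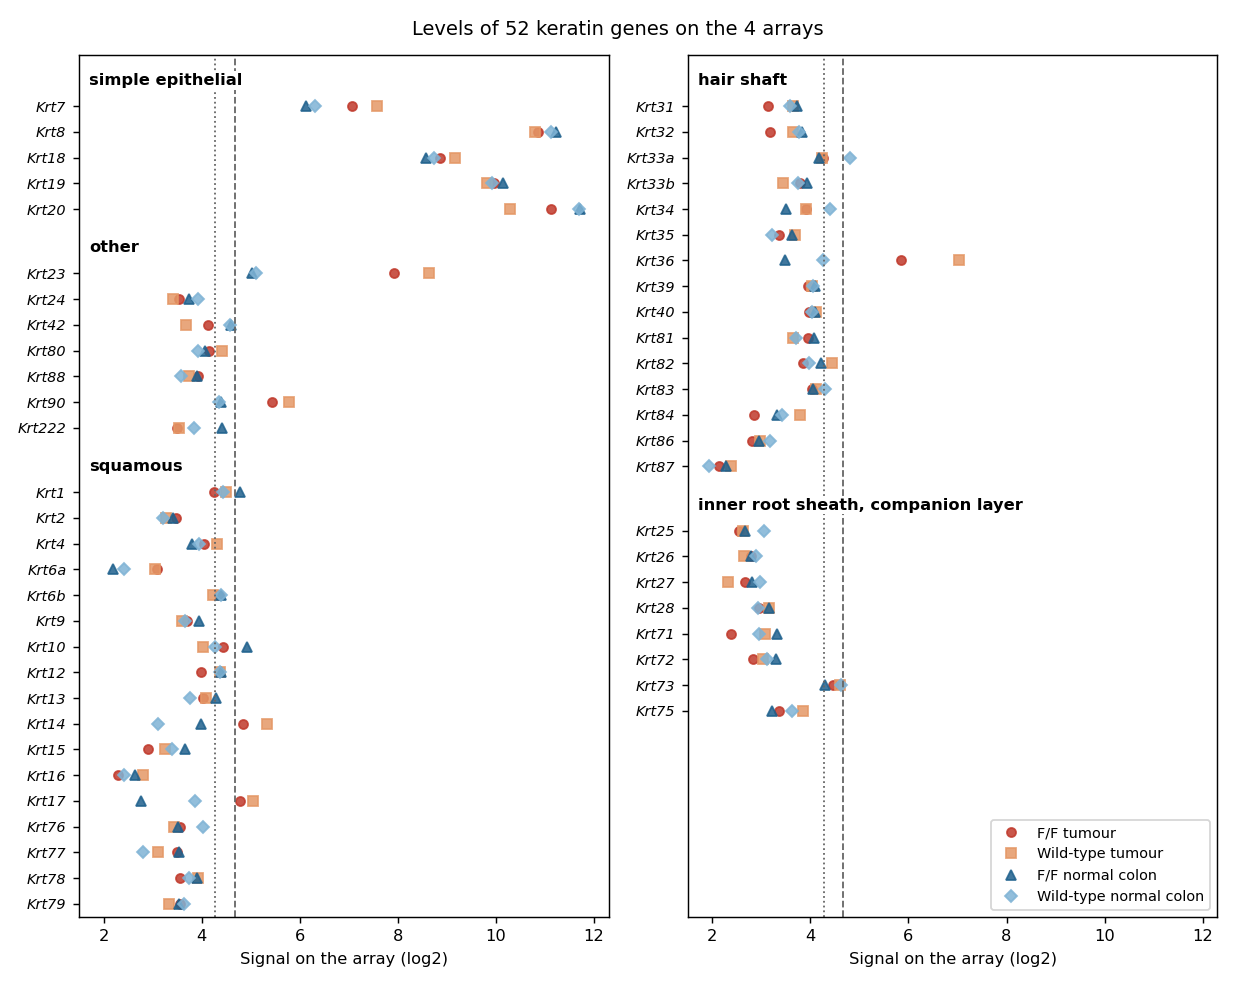
Signal (log2) of each of the 52 keratins on the F/F tumour, wild-type tumour, F/F normal colon and wild-type normal colon arrays, 1 marker per array, grouped by class. The dashed line is the median level of all genes (4.67) and the dotted line the 95th percentile of olfactory receptor genes (4.27). The 5 simple keratins lie right of both lines on every array. Of the keratins that reach the dashed line, Krt23, Krt36, Krt90, Krt14, Krt17, Krt7 and Krt18 have both tumours right of both normal arrays. Krt20 and Krt8 have both tumours left of both normal arrays.

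Tumours were set against normal colon in each genotype and then over both. In one limma model with tissue and genotype as terms, fitted over the 12060 genes that reach the level, Krt23, Krt36, Krt17, Krt90 and Krt7 rose in tumours and Krt20 fell (Benjamini-Hochberg adjusted p under 0.05). These are 5 and 1 of the 13 keratins fitted. Among all genes fitted 11.0% rose and 8.23% fell, and after cyclic loess normalization rising genes made up 46.4% of the calls in place of 57.3%. Krt17, Krt36, Krt90 and Krt14 reached the level only in tumours, so the filter itself required them to be higher there. Without the filter, over all 22180 genes, 6 of the 52 keratins rose (11.5%, against 5.31% of all genes) and 1 fell (1.92%, against 4.05%). The sixth was Krt6a, an injury-associated squamous keratin, by 0.76 (SE 0.15, adjusted p = 0.0428), with all 4 of its values below the level. The model has 1 residual degree of freedom, so its errors rest on genes pooled together. Markers of position along the colon also differed between the tissues. Of 6 distal Hox genes 3 rose, with medians of 1.83 in F/F and 1.18 in wild-type mice. Of 4 proximal genes 3 fell, with medians of -3.94 in F/F and -3.71 in wild-type mice. The part of position in the keratin differences was not tested. In whole tissue, fewer cells of a type and less RNA per cell cannot be told apart.

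By single arrays, 4 keratins were higher by 2-fold or more in the F/F tumour than in F/F normal colon (7.69% of 52, against 3.45% of all genes) and 0 were lower (against 2.28%). In wild-type mice 6 were higher (11.5%, against 3.77%) and 1 was lower (1.92%, against 3.07%). The genes were Krt17, Krt23, Krt36 and Krt90 in both genotypes, with Krt7 and Krt14 higher and Krt20 lower in wild-type mice. Over all 52 keratins the median difference was -0.13 in F/F and 0.03 in wild-type mice, beside -0.03 and 0.00 over all genes.

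Among the simple keratins the core pair of the gut, Krt8 and Krt18, differed little between tumours and normal colon. Krt8 was at 10.85 in the F/F tumour and 10.80 in the wild-type tumour, against 11.22 in F/F and 11.11 in wild-type normal colon. Both tumour arrays were lower, by 0.37 and 0.31 on the log2 scale, and the fitted difference of -0.34 did not pass (SE 0.09, limma adjusted p = 0.0723). With each array centred on its median Krt8 passed as lower (-0.39, adjusted p = 0.0397). Its type I partner Krt18 was at 8.86 in the F/F tumour and 9.16 in the wild-type tumour, against 8.58 in F/F and 8.74 in wild-type normal colon. Both tumour arrays were higher, and the fitted difference of 0.35 did not pass (SE 0.11, limma adjusted p = 0.0925). With both of its probe sets averaged, Krt18 was lower in the F/F tumour (-0.0999) and the fitted difference was 0.0764. Krt19, a type I keratin with hardly any tail domain, was at 9.96 and 9.81 in F/F and wild-type tumours, against 10.15 and 9.91 in F/F and wild-type normal colon (fitted difference -0.14, SE 0.10, limma adjusted p = 0.365).

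Krt20, the type I keratin of differentiated surface cells of the gut, was the member that fell. Its signal was 11.13 in the F/F tumour and 10.28 in the wild-type tumour, against 11.71 in F/F normal colon and 11.70 in wild-type normal colon. The normal arrays were alike and both tumours were below them. The difference was -0.58 in F/F and -1.42 in wild-type mice, and the fitted one -0.999 (SE 0.22, limma adjusted p = 0.0469). This call is at the edge: it was lost without the trend in the error model (adjusted p = 0.0732) and with the genotype term left out (adjusted p = 0.066). Krt7, the type II keratin of ducts and glands, went the other way. It was at 7.06 in the F/F tumour and 7.57 in the wild-type tumour, against 6.13 in F/F and 6.32 in wild-type normal colon, and rose by 1.09 (SE 0.14, limma adjusted p = 0.0195). The median difference of the 5 simple keratins was -0.18 in F/F and -0.10 in wild-type mice.

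Beside the simple keratins, 4 of 10 markers of colon epithelium fell and 0 rose, where 8.23% and 11.0% of all fitted genes did. The fitted differences were -2.33 for the homeobox factor Cdx2 (SE 0.16), -1.10 for the carbonic anhydrase Car1 (SE 0.24), -0.94 for the homeobox factor Cdx1 (SE 0.12) and -0.65 for the brush border protein villin, Vil1 (SE 0.12). Epcam, an adhesion protein of nearly all simple epithelia, was at 10.95 and 10.99 in F/F and wild-type tumours, against 10.93 and 10.88 in F/F and wild-type normal colon (fitted difference 0.07, SE 0.10, limma adjusted p = 0.647). The summed linear signal of the 10 was 12210 and 9919 in F/F and wild-type tumours, against 15200 and 13720 in F/F and wild-type normal colon. That of 6 smooth muscle markers was 3352 and 2144 in F/F and wild-type tumours, against 4628 and 7498 in F/F and wild-type normal colon. For 5 markers of mesothelium, a lining that also makes simple keratins, it was 73.49 and 70.25 in F/F and wild-type tumours. In F/F and wild-type normal colon it was 98.31 and 91.02, and only 2 of the 5 reached the level on any array. Of the smooth muscle and mesothelium markers 0 passed. Of the 6 smooth muscle markers 5 passed as lower in 1 of 4 scalings. The part of cell content in the keratin differences was not tested.

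Krt23 and Krt36 showed the largest tumour differences of the family in both genotypes. Krt23, a type I keratin known from human colon cancers, was at 7.92 in the F/F tumour and 8.64 in the wild-type tumour, against 5.03 in F/F and 5.11 in wild-type normal colon. All 4 arrays were above the level, and the tumours were higher by 2.89 in F/F and 3.53 in wild-type mice. Krt23 rose by 3.21 in the fit (SE 0.19, limma adjusted p = 0.00567), and 0.456% and 0.265% of the 12060 genes had an equal or larger rise in F/F and wild-type mice. Krt36, a type I keratin of the hair shaft, was at 5.85 in the F/F tumour and 7.03 in the wild-type tumour, against 3.49 in F/F and 4.25 in wild-type normal colon. Both tumours were above the level and both normal arrays below it, and Krt36 rose by 2.57 (SE 0.19, limma adjusted p = 0.0078).

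No other hair shaft keratin passed the test. Of these Krt33a alone reached the level, on the wild-type normal array. It was at 4.25 in both the F/F and the wild-type tumour, against 4.18 in F/F and 4.82 in wild-type normal colon (fitted difference -0.25, SE 0.27, limma adjusted p = 0.536). Hair shaft keratins as a whole had a median difference of -0.14 in F/F and -0.02 in wild-type mice over all 15. Of 7 hair follicle markers (Msx2, Hoxc13, Foxn1, Lhx2, Dlx3, Tchh and Gata3) 6 were below the level on every array, and Dlx3 differed by 0.63 (limma adjusted p = 0.122). Their summed signal on the linear scale was 86.85 and 92.19 in F/F and wild-type tumours, against 84.15 and 84.14 in F/F and wild-type normal colon.

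Krt90, a type II keratin, was at 5.43 in the F/F tumour and 5.77 in the wild-type tumour, against 4.40 in F/F and 4.35 in wild-type normal colon. It rose by 1.23 (SE 0.19, limma adjusted p = 0.0258), with both normal arrays below the level. In F/F mice its difference of 1.03 was under 2-fold after median centring (0.95), quantile (0.89) and cyclic loess normalization (0.94).

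Of the squamous keratins, Krt17 passed and Krt14 narrowly did not. Krt17, a type I keratin of injured and fast-growing epithelium, was at 4.77 in the F/F tumour and 5.04 in the wild-type tumour, against 2.77 in F/F and 3.85 in wild-type normal colon. It rose by 1.60 (SE 0.32, limma adjusted p = 0.0379), and the call was lost with the genotype term left out (adjusted p = 0.0566). Krt14, the type I basal keratin, was at 4.84 in the F/F tumour and 5.34 in the wild-type tumour, against 3.99 in F/F and 3.10 in wild-type normal colon. Both tumours were above the level and both normal arrays below it, but the differences of 0.85 in F/F and 2.24 in wild-type mice were unlike in size, and the fitted 1.54 did not pass (SE 0.40, limma adjusted p = 0.0637). With each array centred on its median Krt14 passed (adjusted p = 0.0228), as it did with the genotype term left out (adjusted p = 0.0498).

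The suprabasal pair gave no tumour call. Krt10 was at 4.42 and 4.02 in F/F and wild-type tumours, against 4.92 and 4.27 in F/F and wild-type normal colon (fitted difference -0.37, SE 0.22, limma adjusted p = 0.287). Krt1 was at 4.25 and 4.51 in F/F and wild-type tumours, against 4.79 and 4.43 in F/F and wild-type normal colon (fitted difference -0.23, SE 0.25, limma adjusted p = 0.54). Each of these genes was above the level on the F/F normal array alone. Over all 17 squamous keratins the median difference was -0.06 in F/F and 0.07 in wild-type mice.

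Markers of squamous epithelium other than keratins were read beside Krt14 and Krt17. Of 14 markers 9 were below the level on every array, among them Trp63, the master factor of squamous cells, at 3.53 and 3.26 in F/F and wild-type tumours against 3.34 and 3.49 in F/F and wild-type normal colon. The surface protein Ly6d rose by 1.03 (SE 0.13, limma adjusted p = 0.0181) and the desmosomal plaque protein plakophilin 1, Pkp1, by 0.92 (SE 0.20, limma adjusted p = 0.0469), and Pkp1 was called in 2 of 4 scalings only. The desmosomal cadherin Dsg3 was at 4.54 and 5.19 in F/F and wild-type tumours, against 3.61 and 3.40 in F/F and wild-type normal colon, and did not pass (1.36, SE 0.32, limma adjusted p = 0.0517). Serpinb5, an inhibitor-like protein of many epithelia, was at 8.85 and 8.73 in F/F and wild-type tumours, against 8.77 and 8.88 in F/F and wild-type normal colon (-0.04, SE 0.12, limma adjusted p = 0.839). The basal collagen Col17a1 did not pass (0.71, SE 0.27, limma adjusted p = 0.13). Over all 14 the median difference was 0.14 in F/F and -0.001 in wild-type mice. The summed linear signal of the 14 was 896.9 and 954.6 in F/F and wild-type tumours, against 730.5 and 796.2 in F/F and wild-type normal colon. Serpinb5 had the highest signal of the 14 on every array and Ly6d the next, so they weigh most in this sum. The part of squamous cells in the keratin differences was not tested.

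**Figure D2:**
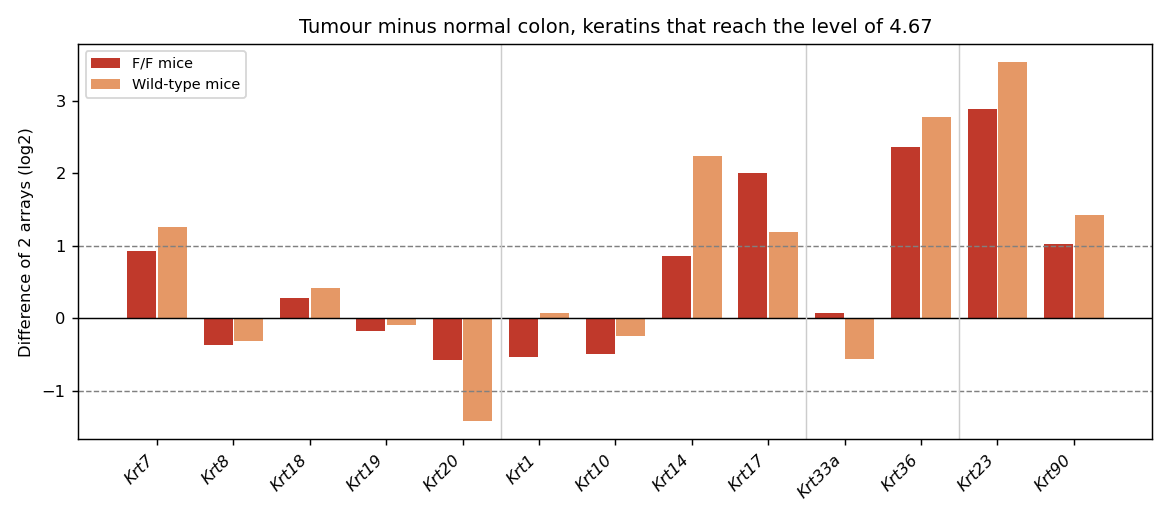
Difference between the tumour and the normal colon array (log2, vertical axis) in F/F mice and in wild-type mice, 1 bar per genotype, for the 13 keratins that reach the level of 4.67. Grey vertical lines part the classes, and dashed lines mark 2-fold. Krt17, Krt36, Krt23 and Krt90 pass 2-fold upward in both genotypes, and Krt20 passes it downward in wild-type mice (-1.42).

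Krt20 and Krt23 are neighbours on chromosome 11, and the one fell while the other rose. Krt36 lies between Krt35 and Krt13, and Krt17 between Krt16 and Krt42, all near background. On chromosome 15, Krt90 lies between Krt82 and Krt75, also near background, and Krt8 next to Krt18. The starts of these genes are shown for the neighbours that moved in opposite directions and for Krt36 and Krt90, which rose with Krt23. They were chosen after their values were seen and come from the RefSeq promoter table (GRCm38.p6). Each window runs from 250 bases before to 50 after the annotated start, 5′ to 3′ on the gene's strand. The Krt20 window is chr11:99438104-99438403, that of Krt23 chr11:99493071-99493370, that of Krt36 chr11:100105577-100105876 and that of Krt90 chr15:101562901-101563200, all on the minus strand. Capitals mark matches, on either strand, to CTTTGA (the core bound by the TCF/LEF factors of Wnt signalling), TGANTCA (bound by AP-1) or TATAAA (the TATA box).
Krt20: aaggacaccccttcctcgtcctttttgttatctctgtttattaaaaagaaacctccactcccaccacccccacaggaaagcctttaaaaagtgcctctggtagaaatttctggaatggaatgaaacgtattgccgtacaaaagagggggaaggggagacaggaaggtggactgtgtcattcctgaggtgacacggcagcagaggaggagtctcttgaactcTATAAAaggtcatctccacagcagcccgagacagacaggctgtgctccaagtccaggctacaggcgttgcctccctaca
Krt23: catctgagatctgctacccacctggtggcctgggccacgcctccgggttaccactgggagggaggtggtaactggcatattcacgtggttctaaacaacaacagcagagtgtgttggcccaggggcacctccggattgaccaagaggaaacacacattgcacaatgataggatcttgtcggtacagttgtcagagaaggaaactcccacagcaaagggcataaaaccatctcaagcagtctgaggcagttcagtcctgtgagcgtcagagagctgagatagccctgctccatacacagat
Krt36: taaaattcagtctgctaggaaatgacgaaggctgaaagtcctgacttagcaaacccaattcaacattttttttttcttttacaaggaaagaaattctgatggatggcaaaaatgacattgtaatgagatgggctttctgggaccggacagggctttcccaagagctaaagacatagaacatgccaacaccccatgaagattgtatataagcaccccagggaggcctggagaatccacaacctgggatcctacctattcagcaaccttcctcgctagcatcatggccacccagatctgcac
Krt90: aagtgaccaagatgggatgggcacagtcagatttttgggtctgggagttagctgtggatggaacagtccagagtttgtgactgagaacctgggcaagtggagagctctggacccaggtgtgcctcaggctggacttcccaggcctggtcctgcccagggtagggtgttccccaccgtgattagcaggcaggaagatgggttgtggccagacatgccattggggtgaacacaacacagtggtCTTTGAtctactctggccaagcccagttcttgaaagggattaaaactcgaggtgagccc
Krt20 has 1 TATAAA, and Krt90 has 1 CTTTGA, which does not overlap another of these motifs. These letters are not in the Krt23 and Krt36 windows. The table has 36 windows for 35 of the members, of which 9 hold CTTTGA, 2 hold TGANTCA and 19 hold TATAAA, beside 16.0%, 7.81% and 13.6% of all 32851 windows. A match is a description of the letters and not evidence of binding.

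F/F mice were then set against wild-type mice within each tissue. Slc11a2 itself, read by 1 probe set for the gene, was at 6.19 in the F/F tumour and 6.64 in the wild-type tumour, and at 6.13 in F/F and 6.51 in wild-type normal colon. It was lower in the F/F array of both tissues, and the fitted difference of -0.41 did not pass (SE 0.12, limma adjusted p = 0.564). Whether the probes lie in the part flanked by loxP sites is not known here. Over both tissues limma called 0 keratins, as it called 0 of all genes (0.0% higher and 0.0% lower). An unadjusted limma p under 0.05 was found for 991 of the 12060 genes and for 1 of the 13 keratins fitted, Krt36. The fitted difference of Krt36 was -0.97 (SE 0.19, limma adjusted p = 0.523), lower in the F/F array of both tissues. Between the tumour arrays 1 keratin, Krt36, was lower by 2-fold or more in F/F (-1.18; 1.92% of 52, against 0.325% of all genes) and 0 were higher (against 1.01%). Between the normal arrays 1, Krt17, was lower (-1.09; against 0.537%) and 0 were higher (against 0.482%). In normal colon the F/F and wild-type values of Krt17 and Krt36 were all below the level.

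In tumours, Krt20 was higher in F/F by 0.85, which 2.56% of the 12060 genes matched or passed, while the normal arrays differed by 0.01. Krt23 (-0.72), Krt7 (-0.51), Krt14 (-0.50), Krt90 (-0.34), Krt18 (-0.29) and Krt17 (-0.27) were lower in the F/F tumour than in the wild-type tumour. With Krt36 these are the 7 of the 13 keratins above the level whose tumour array was the higher one in both genotypes. The wild-type tumour array enters both comparisons and was the highest array for each of them, so the comparisons are not independent. Krt14, Krt17, Krt36 and Krt90 reached the level only in tumours. Krt1 (-0.25) was also lower in the F/F tumour, and its tumour array was the higher one in wild-type mice only. Krt10 was higher in the F/F tumour (0.41), while Krt8 (0.05), Krt19 (0.15) and Krt33a (0.0042) differed little. How many of all genes raised in tumours were lower in the F/F tumour was not counted. For Krt20 the tumour difference was smaller in size in F/F mice by 0.85, and 6.45% of the 12060 genes had a gap between the genotypes as wide or wider. With 1 array a group this gap was not tested.

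In the same tumour comparison colon epithelium markers had a median of 0.25 higher in F/F over 10 genes, with Cdx2 at 1.39 and Car1 at 1.12. Smooth muscle markers had a median of 0.67, and all 6 were higher in the F/F tumour, by 0.40 to 0.96. The part of cell content in the Krt20 difference was not tested. In normal colon Krt10 was higher in F/F (0.65) and Krt33a lower (-0.64), but each reached the level on the higher of these arrays alone, so the filter fixed these directions. Krt14 was below the level on both normal arrays. There the markers of distal position had a median of -0.91 in F/F over 6 Hox genes, with Hoxd13 at -3.84, and those of proximal position 1.57 over 4 genes. Where along the colon each piece was taken is not given, and position and genotype cannot be told apart between the normal arrays. Over all 52 keratins the median difference was -0.15 in tumours and 0.05 in normal colon, beside -0.01 and 0.02 over all genes.

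**Figure D3:**
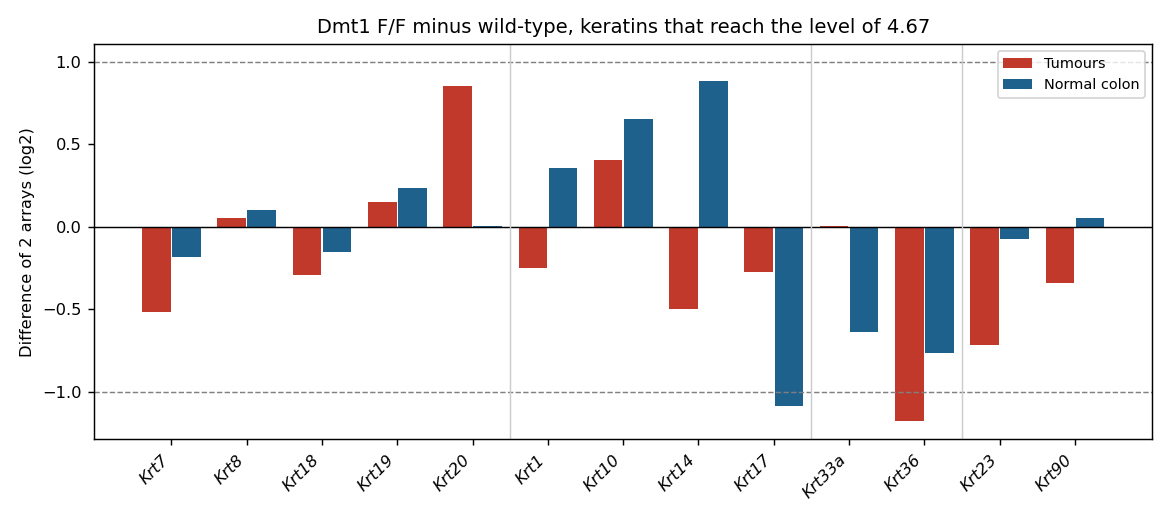
Difference between the F/F and the wild-type array (log2, vertical axis) in tumours and in normal colon, 1 bar per tissue, for the 13 keratins that reach the level of 4.67. Grey vertical lines part the classes, and dashed lines mark 2-fold. Krt36 is lower in F/F in both tissues (-1.18 in tumours), and Krt20 is higher in F/F by 0.85 in tumours and by 0.01 in normal colon.

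Of 23 genes of keratin linkage and desmosomes 17 reached the level. Of these 17, 3 rose and 2 fell in limma's fit, where 11.0% and 8.23% of all fitted genes did. The plakin periplakin, Ppl, which binds keratins at the cell border, rose by 1.07 (SE 0.21), Pkp1 by the value above and the hemidesmosomal integrin Itga6 by 0.54 (SE 0.12), which was called in 3 of 4 scalings. The plakin dystonin, Dst, fell (-1.11, SE 0.18), as did the desmosomal cadherin Dsc2 (-0.56, SE 0.10). Desmoplakin, Dsp, the main keratin anchor of desmosomes, was at 10.33 and 10.24 in F/F and wild-type tumours, against 10.31 and 10.12 in F/F and wild-type normal colon (0.07, SE 0.10, limma adjusted p = 0.633).

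Among 15 other intermediate filament genes 9 reached the level. Vimentin, Vim, the filament of mesenchymal and blood cells, rose by 1.64 (SE 0.12, limma adjusted p = 0.0078), and synemin, Synm, of muscle fell by 1.68 (SE 0.35, limma adjusted p = 0.0431). Of 39 measured genes of the cornified envelope, the cross-linked shell of dead squamous cells, 8 reached the level. The cross-linking enzyme Tgm1 rose by 1.13 (SE 0.19, limma adjusted p = 0.029) and the envelope protein Sprr1a fell by 1.48 (SE 0.11, limma adjusted p = 0.00812). None of the genes in these lists passed for genotype, where 0 of all genes did. In the cornified envelope list Casp14 (-2.82) and Tgm3 (-1.91) were lower in F/F than in wild-type normal colon. Between the tumours they differed by 0.21 and 1.42. Over all 39 genes the median was -0.12 in normal colon and 0.14 in tumours.

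**Figure D4:**
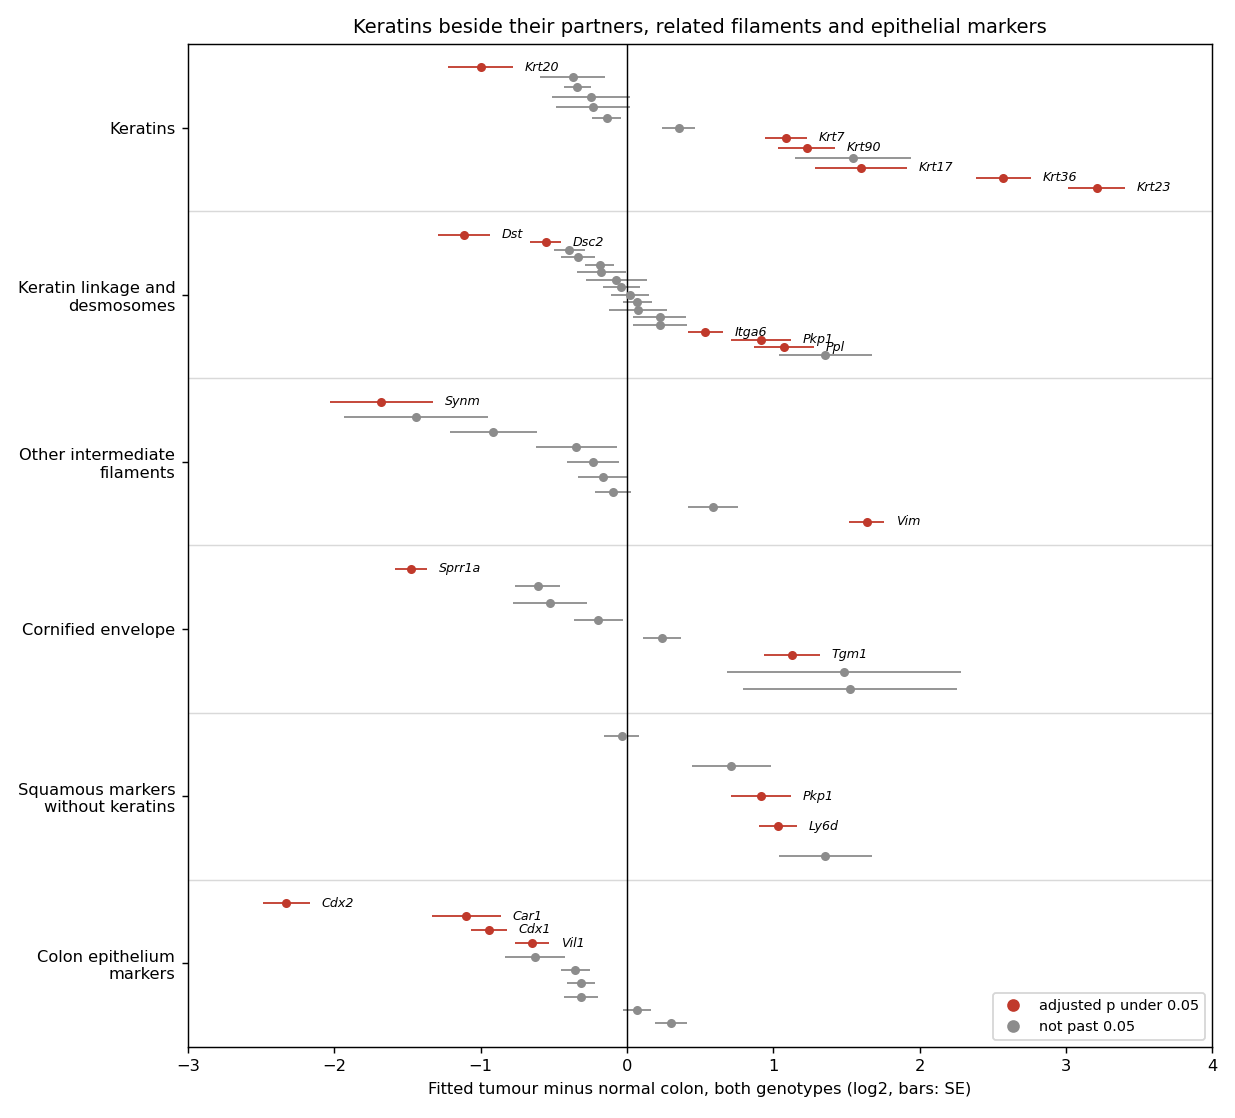
Fitted tumour minus normal colon difference over both genotypes (log2, horizontal axis; bars are SE from limma) for the keratins and for genes of related lists that reach the level of 4.67, 1 point per gene. Red points have an adjusted p under 0.05 and are named. Of the keratins 5 lie right of 0 and 1, Krt20, left of it in red, while 0 of the colon epithelium markers lie right of 0 in red.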

How the data were processed

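The deposited table holds log2 signals that the authors made with RMA (R package oligo, version and annotation not given), per the submitters' processing notes. RMA corrects the background, makes the arrays' intensity distributions alike and summarises each probe set, so a difference in total signal is lost and no error or detection call is kept. Per the labels' protocols, Trizol RNA (400 ng) was labelled with biotin. Of 41345 probe sets, 23521 name 1 gene in the platform annotation, 1814 several and 16010 none. Symbols were updated through RefSeq (GRCm38.p6) for 23328. The probe set with the highest mean stood for a gene, and levels were compared within a probe set only. One keratin pseudogene was left out, and 2 keratins of the fixed classes have no probe set of their own in use here.

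The model was limma 3.58.1 (R 4.3.3, terms for tissue and genotype, eBayes with trend, Benjamini-Hochberg over 12060 genes). Its residual is the tissue by genotype term. It was also run on simulated data, with noise drawn from the fitted error model. That run cannot show whether the errors hold for 4 arrays without replicates. Nothing says that tumour and normal tissue came from separate animals. The p-values rest on the tissue by genotype residual and on errors pooled over genes. They measure no spread between animals or between like arrays, and the number of arrays limits the precision. The members, classes and lists were chosen with earlier results of these data known. Keratins that reach the level were named with all values, the others by range, and in each list up to 4 passing genes per direction. Figures were drawn with matplotlib 3.10.9.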

Additional observations from a re-analysis of the deposited data

Results flagged for a closer look

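A few keratins moved one way in one group and the other way in the other. With 1 array a group none of these contrasts was tested, and most values lay near background. For tumour against normal colon, Krt1 differed by -0.54 in F/F and 0.0738 in wild-type mice, and Krt33a by 0.0753 in F/F and -0.57 in wild-type mice. For F/F against wild-type, Krt14 differed by -0.50 in tumours and 0.88 in normal colon, Krt1 by -0.25 in tumours and 0.36 in normal colon, Krt90 by -0.34 in tumours and 0.0547 in normal colon, and Krt33a by 0.0042 in tumours and -0.64 in normal colon.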

How the results depend on the processing

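No passing limma call of a keratin changed its sign, while class medians did, as given below. The count of keratins that fell in tumours was 1, and was 2 with each array centred on its median (Krt8 added), 0 without the trend and 0 with tissue alone. The count that rose stayed within 1.5 times of 5 in all alternatives run, and 0 keratins passed for genotype in each alternative with a genotype term. At 1.5-fold in place of 2-fold, among the 13 keratins that reach the level, 2 were higher and 3 lower in F/F normal colon. The higher ones were Krt10 and Krt14, the lower ones Krt17, Krt33a and Krt36. The filter fixed the directions of Krt10 and Krt33a, while Krt14, Krt17 and Krt36 were below the level on both normal arrays. In the F/F tumour 1 was higher and 2 were lower. Keratins below the level and the share over all genes were not counted at 1.5-fold. At the olfactory limit 13 keratins reached it in the F/F tumour and 16 in the wild-type tumour, against 15 in F/F and 15 in wild-type normal colon. At the 75th percentile of all genes the numbers were 6 in the F/F tumour and 7 in the wild-type tumour, against 4 in F/F and 4 in wild-type normal colon. For these limits too, the share of all genes was not counted per array.

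Class medians over the few members above the level depended on which members that left, by construction. For tumour against normal colon the squamous median was 0.18 in F/F and 0.63 in wild-type mice, -0.055 and 0.0748 without the filter, and -0.16 and 0.21 at the olfactory limit. The hair median was 1.22 and 1.11 over 2 genes, -0.13 and -0.0186 without the filter, 0.12 and -0.10 at the olfactory limit, and 0.16 and -0.0156 where a gene's probe sets were averaged. The simple median was -0.18 in F/F and -0.10 in wild-type mice, and 0.0507 and 0.16 with Krt23 counted as simple. For F/F against wild-type the squamous median was -0.26 in tumours and 0.51 in normal colon, -0.0554 and 0.21 without the filter, and 0.19 in normal colon at the olfactory limit. The hair median was -0.59 in tumours and -0.70 in normal colon, -0.16 and 0.0438 without the filter, -0.12 and -0.48 at the olfactory limit, and -0.15 in tumours where a gene's probe sets were averaged. Arrays could not be paired by animal, since the labels carry no replicate numbers. With a genotype term in the model, the tissue term compares tumour with normal colon within each genotype. The fit with tissue alone is the one without a genotype term.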
